A study of Mus musculus with 48 samples.

Results

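The adult globin genes of mouse lung were examined: Hba-a1 and Hba-a2, which encode the alpha chains of hemoglobin, and Hbb-bs and Hbb-bt, which encode the beta chains. They are 4 of the 47561 genes in the deposited expression table and were taken by their gene symbols. All 4 were above the low-value filter in every one of the 48 lungs. The genes were chosen because their levels were already known to be high and to differ with strain, injection and air, so those levels are given as a description without a test.

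Poly(A)-selected RNA came from snap-frozen lung of 48 adult mice, 3 in each of 16 groups. The groups combined 2 strains (C3H/hen, called C3H, and C57Bl/6, called C57B), both sexes (M and F), a single intraperitoneal injection of saline (SAL) or of 25 mg/kg aurothioglucose (ATG), and 96 h in room air (RA) or in hyperoxia of over 95% oxygen (HYP). Aurothioglucose is a gold compound that inhibits thioredoxin reductase. No group carried a transgene, every mouse received an injection, and saline mice in room air served as the baseline. Values are FPKM, the fragments assigned to a gene scaled to transcript length and to all mapped fragments, as the authors calculated them. Read depth is unknown because the table holds no counts. Each library has its own mouse number, so spread within a group is spread between 3 mice.

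Hemoglobin is a tetramer of alpha and beta chains that each hold a heme group. The chains are made in red cell precursors, and mammalian red cells lose their nuclei but leave the marrow as reticulocytes that still hold globin mRNA. Blood carries these transcripts into any tissue that holds it. In whole tissue, fewer cells of a type and less RNA per cell cannot be told apart.

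Each chain is encoded by a pair of nearly identical genes, which limits what short reads can say of either copy. Hba-a1 (ENSMUSG00000069919) lies on the plus strand of chromosome 11 at 32283511 to 32284465 and Hba-a2 (ENSMUSG00000069917) at 32296489 to 32297298 (GRCm38, the assembly also called mm10). Hbb-bs (ENSMUSG00000052305) lies on the minus strand of chromosome 7 at 103826534 to 103828096 and Hbb-bt (ENSMUSG00000073940) at 103812524 to 103813996. The coding sequences, 426 bases long in the alpha pair and 441 bases in the beta pair, differ at 1 base in each pair and are 99.8% identical. Counted from the first base of the start codon, the differences are C381T from Hba-a1 to Hba-a2 and C417T from Hbb-bs to Hbb-bt, both in exon 3. The 25 bases around each site are shown because they are the only coding bases that tell the copies apart in this reference, with the differing base in capitals.
Hba-a1 (chr11:32284335-32284359, plus strand): tctctggaCaaattccttgcctctg
Hba-a2 (chr11:32297152-32297176, plus strand): tctctggaTaaattccttgcctctg
Hbb-bs (chr7:103826676-103826700, minus strand): ggagtggcCgctgccctggctcaca
Hbb-bt (chr7:103812667-103812691, minus strand): ggagtggcTgctgccctggctcaca

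Over the whole transcripts, 71.5% of the 30-base stretches of Hba-a1 and 91.2% of those of Hba-a2 occur in the other alpha gene. The share is 66.9% for Hbb-bs and 59.5% for Hbb-bt within the beta pair. The reads, at 150 bases, were longer than these stretches, so the shares are not the part of reads that fit both copies. That part was not measured. The split of FPKM between 2 copies is therefore uncertain, and sums over a pair are given beside the single genes. The reference is a C57BL/6 genome, and its match to the C3H alleles was not tested.

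The promoters of the 4 genes are shown as a description. The genes followed one another once group means were subtracted, with r between pairs of 0.906 to 0.979. Any part of the promoters in this was not tested. Without that step, r between pairs ran from -0.270 to 0.945 in room air and from -0.126 to 0.967 in hyperoxia. Each line gives the 150 bases before the RefSeq start of the gene, read on the gene's own strand (RefSeq promoter table, GRCm38.p6). These starts lie inside the gene spans given above, which are from GENCODE M21. The Hba-a1 and Hbb-bs windows therefore fall within those spans, and the Hba-a2 and Hbb-bt windows overlap theirs. Capitals mark the motif CACCC, the motif CCAAT on either strand, and the TATA-type motif ATATAA.
Hba-a1 (chr11:32283522-32283671): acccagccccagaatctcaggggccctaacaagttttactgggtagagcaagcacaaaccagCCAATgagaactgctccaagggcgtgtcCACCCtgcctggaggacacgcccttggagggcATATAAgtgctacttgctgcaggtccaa
Hba-a2 (chr11:32296342-32296491): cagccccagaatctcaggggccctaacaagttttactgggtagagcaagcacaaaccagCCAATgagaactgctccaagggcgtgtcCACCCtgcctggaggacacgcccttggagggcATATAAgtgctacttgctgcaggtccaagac
Hbb-bs (chr7:103827929-103828078): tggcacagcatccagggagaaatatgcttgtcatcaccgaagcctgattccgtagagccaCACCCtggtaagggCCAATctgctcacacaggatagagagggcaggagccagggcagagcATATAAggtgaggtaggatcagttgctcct
Hbb-bt (chr7:103813924-103814073): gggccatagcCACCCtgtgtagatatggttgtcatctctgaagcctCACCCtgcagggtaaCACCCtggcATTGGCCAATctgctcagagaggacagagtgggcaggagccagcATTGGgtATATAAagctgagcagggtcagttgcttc

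All 4 windows held the 3 motifs. Among 32851 promoters searched over the 250 bases before the start on both strands, CACCC occurred in 52.0%, CCAAT in 33.8% and ATATAA in 9.10%. The GATA-type motif AGATAA, found in 9.99% of promoters, was present only before Hbb-bs, 210 to 205 bases from the start and so outside the stretch printed. The 2 alpha promoters shared an unbroken run of 297 of the 300 bases in the table, whereas the longest run common to the 2 beta promoters was 14 bases. A motif match is a description of letters and not evidence of binding.

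The sum of the 4 genes ranged from 3341 to 67957 FPKM in the 24 room air lungs, with a median of 11808, which was 0.508% to 10.4% of the FPKM of all genes. The 10.4% came from 1 C3HM lung, and the share in the other room air lungs was 0.508% to 2.86%. In the 24 hyperoxia lungs the sum ranged from 305 to 2004 FPKM with a median of 609, or 0.0567% to 0.373% of the total. The groups by air did not overlap.

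Hbb-bs was the most abundant of the 4 genes in every lung. In room air after saline its FPKM was 9226, 9885 and 41619 in C3HM, 8227, 7645 and 9101 in C3HF, 11888, 11733 and 12422 in C57BM, and 2131, 2595 and 3123 in C57BF. A single C3HM lung thus stood far above the rest, and the C57BF lungs lay below all others. In room air after ATG, Hbb-bs was 4089, 9403 and 10007 in C3HM, 8977, 4503 and 6853 in C3HF, 7212, 4385 and 7609 in C57BM, and 4019, 5583 and 4839 in C57BF, so that the 4 groups overlapped. In hyperoxia after saline the values were 643, 1264 and 363 in C3HM, 443, 194 and 609 in C3HF, 532, 281 and 410 in C57BM, and 313, 298 and 781 in C57BF. In hyperoxia after ATG they were 873, 265 and 471 in C3HM, 598, 284 and 243 in C3HF, 357, 928 and 281 in C57BM, and 299, 259 and 1033 in C57BF. All 24 hyperoxia lungs lay below the lowest room air lung, and within hyperoxia the 8 groups overlapped.

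**Figure D1:**
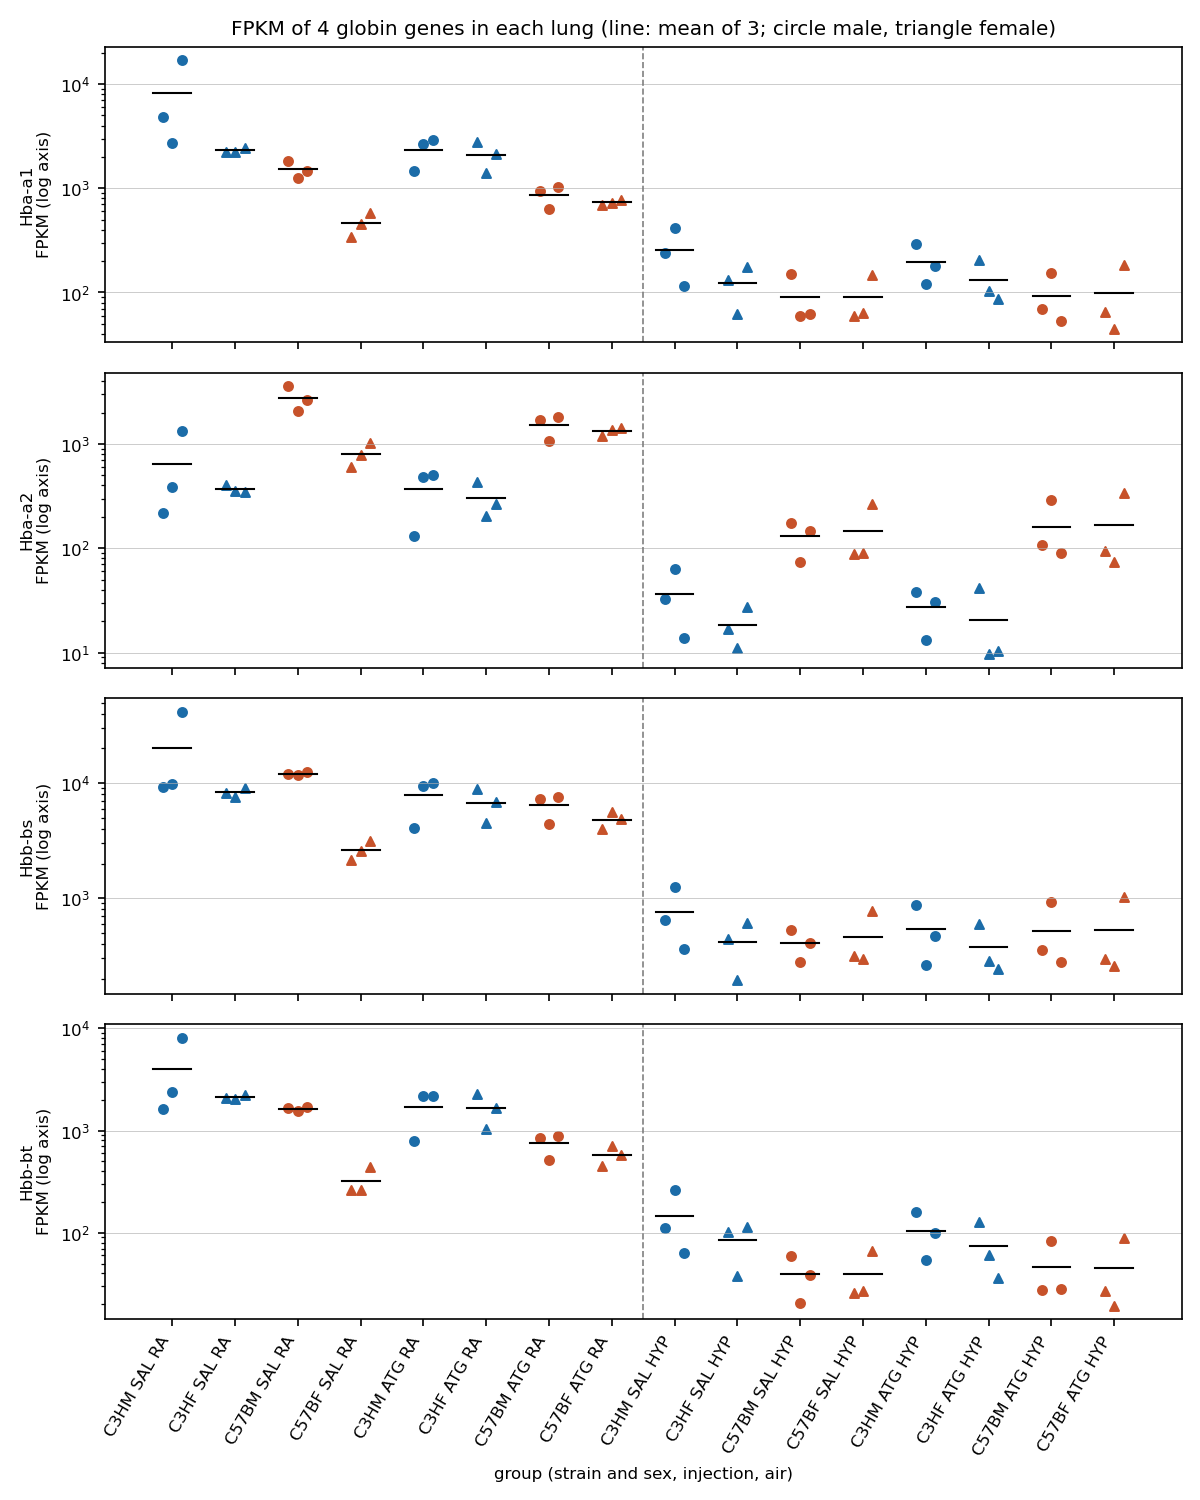
FPKM of each globin gene (log axis) in each of the 48 lungs by group, with a line at the mean of 3 mice, circles for males, triangles for females, C3H in blue and C57B in orange. Room air groups stand left of the dashed line and hyperoxia groups right of it, and Hbb-bs ran from 2131 to 41619 FPKM in room air and from 194 to 1264 in hyperoxia.

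Hyperoxia went with lower levels of all 4 globins in each strain, sex and injection. In saline mice, mean Hbb-bs was 10800 ± 10352 FPKM in room air and 511 ± 293 in hyperoxia (SD, n = 12 each), and mean Hbb-bt was 2032 ± 2063 and 77.4 ± 67.2 FPKM. Mean Hba-a1 was 3104 ± 4503 FPKM in room air and 140 ± 103 in hyperoxia, and mean Hba-a2 was 1150 ± 1080 and 83.6 ± 77.4 FPKM. Without the single high C3HM lung the room air means were 7998 FPKM for Hbb-bs, 1478 for Hbb-bt, 1853 for Hba-a1 and 1132 for Hba-a2.

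Over the 8 combinations of strain, sex and injection, the mean globin sum in room air was 5.68 to 27.7 times that in hyperoxia, with a median of 16.1. The smallest ratio belonged to saline C57BF, which had the lowest room air level, and the largest to saline C3HM, which held the high lung. Without that lung the ratio in saline C3HM was 13.1 and the largest of the 8 was 26.8. The ratio ranged from 5.10 to 31.7 for Hba-a1, from 5.50 to 21.0 for Hba-a2, from 5.64 to 29.5 for Hbb-bs and from 8.07 to 41.7 for Hbb-bt, and without the high C3HM lung the largest ratio for Hba-a1 was 18.8. Hbb-bt, the minor beta gene, had the largest median ratio at 19.5, against 16.3 for Hbb-bs, 14.1 for Hba-a2 and 14.0 for Hba-a1.

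Within each strain the air groups did not overlap for any of the 4 genes. In C3H the lowest room air and the highest hyperoxia values were 4089 and 1264 FPKM for Hbb-bs, 1415 and 415 for Hba-a1, 799 and 263 for Hbb-bt, and 131 and 63.0 for Hba-a2. In C57B they were 2131 and 1033 FPKM for Hbb-bs, 344 and 183 for Hba-a1, 261 and 89.0 for Hbb-bt, and 605 and 335 for Hba-a2. Of all genes, 2.39% were lower in hyperoxia with no overlap among the C3H mice and 9.00% among the C57B mice. The rule that chose the 4 genes used this contrast, so nothing is read from their count.

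The makeup of the globin signal differed between strains, and more for the alpha pair than for the beta pair. Hba-a2 gave 4.30% to 17.0% of alpha-globin FPKM in the 24 C3H lungs (median 12.5%) and 54.0% to 70.1% in the 24 C57B lungs (median 63.5%). Hbb-bt gave 12.9% to 21.0% of beta-globin FPKM in C3H (median 17.4%) and 6.82% to 12.3% in C57B (median 9.54%). Neither range overlapped between strains, in any injection or air.

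The makeup of the alpha pair was similar in both airs. The mean Hba-a2 share was 11.8% ± 3.44 in room air and 12.3% ± 2.41 in hyperoxia in C3H (SD, n = 12 each), and 64.1% ± 1.14 and 61.4% ± 4.44 in C57B. The Hbb-bt share averaged 18.6% ± 1.88 in room air and 16.3% ± 1.57 in hyperoxia in C3H, and 11.0% ± 0.960 and 8.04% ± 0.912 in C57B. The lowest Hba-a2 shares in C3H room air, 4.30%, 7.37% and 8.16%, came from 3 male lungs in which the ribosomal RNA gene Rn18s-rs5 was at 25895, 20766 and 22813 FPKM, against 4400 to 11999 in the other C3H room air lungs. The lung at 20766 FPKM was also the C3HM lung with the highest globin sum, 67957 FPKM. The part of ribosomal RNA in the shares and in the globin levels was not tested.

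Alpha-globin FPKM was 0.248 to 0.554 times beta-globin FPKM. The ratio averaged 0.299 ± 0.0615 in room air and 0.330 ± 0.0395 in hyperoxia in C3H, and 0.367 ± 0.0615 and 0.467 ± 0.0333 in C57B (SD, n = 12 each). The values of C57B hyperoxia lungs ran from 0.429 to 0.554 and those of C57B room air lungs from 0.252 to 0.452, so a few lungs overlapped. The 4 transcripts differ in length from 554 to 703 bases, and the FPKM ratio is per length.

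**Figure D2:**
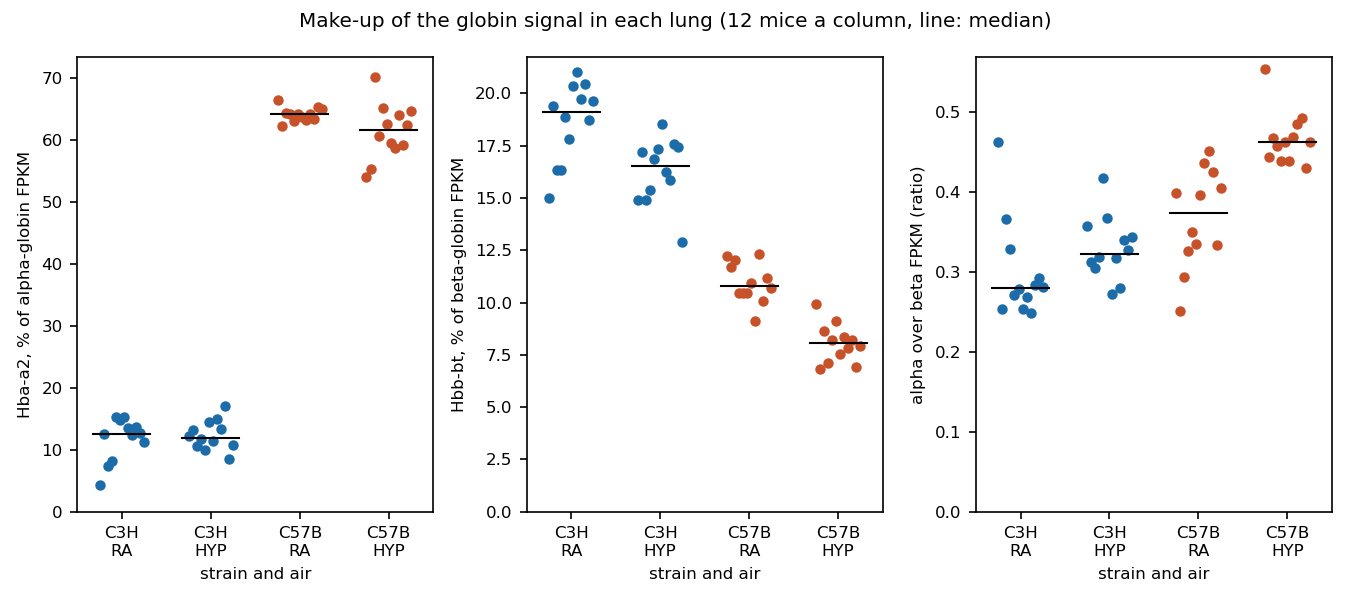
Share of Hba-a2 in alpha-globin FPKM and of Hbb-bt in beta-globin FPKM (percent), and the ratio of alpha to beta FPKM, in 12 lungs for each strain and air, with a line at the median. The strains separate in both shares, with Hba-a2 at 4.30% to 17.0% in C3H and 54.0% to 70.1% in C57B, while the alpha to beta ratios overlap.

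At baseline, in saline mice in room air, the order of the strains in assigned FPKM differed between the alpha copies. The part of read assignment in this was not tested either. Hba-a1 was 4807, 2719 and 16865 FPKM in C3HM and 2221, 2244 and 2462 in C3HF, against 1813, 1265 and 1473 in C57BM and 344, 459 and 577 in C57BF. All 6 C3H lungs lay above all 6 C57B lungs, an order that 2.14% of genes showed. The rule that chose the globins used the strain labels, so nothing is read from that share. Hba-a2 went the other way in mean, at 216, 389 and 1342 FPKM in C3HM and 403, 350 and 350 in C3HF, against 3581, 2080 and 2664 in C57BM and 605, 788 and 1032 in C57BF, and the strains overlapped through the high C3HM lung. Hbb-bt was 1630, 2377 and 8131 FPKM in C3HM, 2101, 2035 and 2237 in C3HF, 1659, 1557 and 1695 in C57BM, and 261, 261 and 439 in C57BF.

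The summed globins put the baseline groups in the order C57BF, C3HF, C57BM and C3HM. The sum was 4205 ± 919 FPKM in C57BF, 13126 ± 950 in C3HF, 17943 ± 1183 in C57BM and 33069 ± 30215 in C3HM (SD, n = 3 each). The first 3 groups did not overlap one another. The C3HM values were 15880, 15370 and 67957, so that C3HM did not differ from C57BM beyond its own spread, and 2 of its 3 lungs lay below all C57BM lungs.

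Males had higher globin sums than females at baseline in both strains. The ratio of male to female means was 4.27 in C57B, where none of the 4 genes overlapped between sexes, an order that 10.6% of genes showed in these 6 mice. It was 2.52 in C3H, where Hba-a1 and Hbb-bs did not overlap and Hba-a2 and Hbb-bt did. The share of all genes with such an order was not counted in C3H, so nothing is read from the overlap there. The baseline mice had been used for the sex contrast before, so nothing is read from the C57B share either. Without the C3HM lung at 67957 FPKM, left out after the data had been seen, the C3H ratio was 1.19 for the sum, 1.63 for Hba-a1, 1.15 for Hbb-bs, 0.943 for Hbb-bt and 0.823 for Hba-a2. In the other 6 combinations of strain, injection and air, which all involved ATG or hyperoxia, the ratio ranged from 0.904 to 1.87 and the sexes overlapped in each.

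The sex difference was tested in the 36 mice given ATG, hyperoxia or both, since these samples had not been used for that contrast before. Hbb-bs was 265 to 10007 FPKM (median 758) in the 18 males and 194 to 8977 (median 603) in the 18 females, and the log2 difference was 0.30 (SE 0.23, limma adjusted p = 0.497). Hba-a1 ranged from 53.5 to 2892 FPKM in males and from 44.8 to 2766 in females, a log2 difference of 0.33 (SE 0.21, limma adjusted p = 0.413). For Hba-a2 the log2 difference was 0.29 (SE 0.26, limma adjusted p = 0.589) and for Hbb-bt 0.29 (SE 0.25, limma adjusted p = 0.569). None of the 4 genes passed the threshold of an adjusted p under 0.05, which 3.70% of genes did, while males were higher in mean for all 4. No globin passed it in 24 hyperoxia mice alone or in 12 ATG room air mice alone, which were looked at after the data had been seen.

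ATG in room air went with different directions in the sexes of C57B. In C57BM, Hbb-bs averaged 12014 ± 361 FPKM after saline and 6402 ± 1763 after ATG, which is 0.533 times as much, and in C57BF 2617 ± 496 and 4814 ± 782 FPKM, or 1.84 times as much (SD, n = 3 each). The ratio of ATG to saline means in C57BM was 0.571 for Hba-a1, 0.552 for Hba-a2 and 0.457 for Hbb-bt, and in C57BF it was 1.59, 1.65 and 1.80. In neither sex did any of the 4 genes overlap between injections. The share of genes that were lower in C57BM with no overlap was 4.54%, and the share that were higher in C57BF was 3.77%. The rule that chose the 4 genes used the injection labels, so nothing is read from their count.

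**Figure D3:**
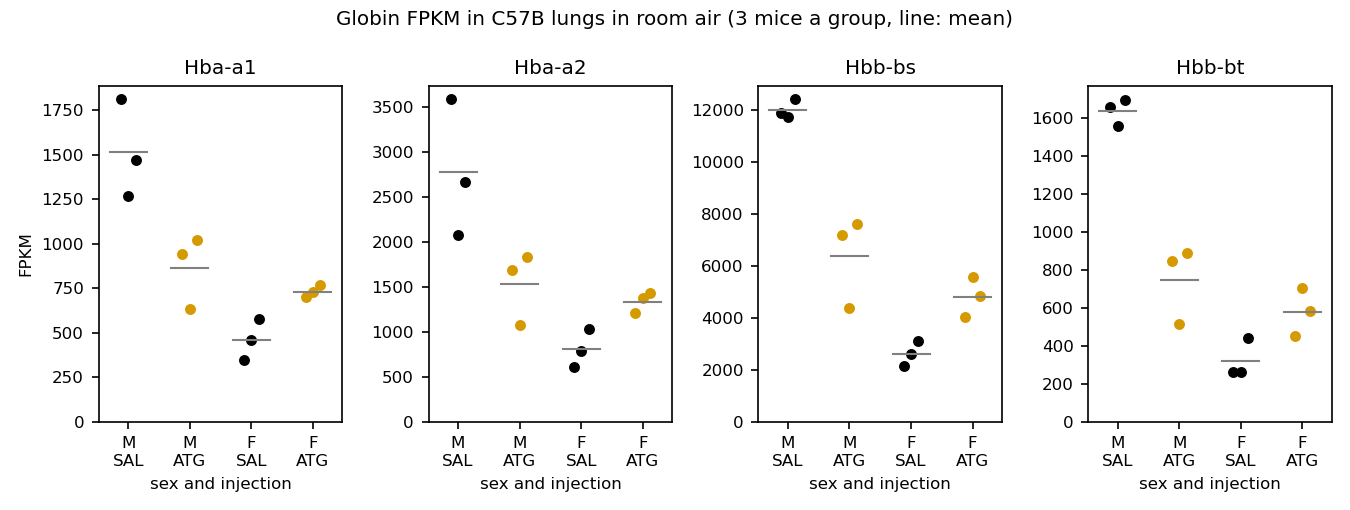
FPKM of each globin gene in C57B lungs in room air by sex and injection, 3 mice a group, with a line at the mean and the axis from 0. After ATG every male lung lay below the saline males and every female lung above the saline females, and mean Hbb-bs went from 12014 to 6402 FPKM in males and from 2617 to 4814 in females.

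In C3H the injections overlapped for all 4 genes in both sexes. The ATG to saline ratio of the globin sum was 0.371 in C3HM and 0.827 in C3HF. The sum in C3HM was 6496, 14734 and 15566 FPKM after ATG, and the ratio was 0.785 without the 1 saline lung at 67957. In hyperoxia the ratio was between 0.722 and 1.23 in the 4 combinations of strain and sex, all with overlap. Over all 24 room air mice, 3 of 16228 genes passed the threshold for ATG (0.0185%), and of the related genes listed here only Marco, a macrophage scavenger receptor, was among them, with a log2 change of 1.47 (SE 0.13, limma adjusted p = 8.59e-06).

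The other genes of red cells and of hemoglobin handling were taken from fixed lists and tested with limma across all genes. Hyperoxia in saline mice moved much of the transcriptome: 60.1% of 16321 genes passed the threshold, 28.3% lower and 31.8% higher, with a median log2 change of 0.01 over all genes. Counts within a list are to be read against those shares. For genes that reached 1 FPKM in fewer than 3 hyperoxia mice, the low-value filter rested mostly on room air, which favors a difference. Such genes are set apart below.

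Of the 16 genes of late red cells, 11 reached 1 FPKM in at least 3 mice of each air, and 8 of these were lower in hyperoxia and none higher. How much of the RNA of these 11 genes came from cells other than red cells was not tested. Bpgm, the enzyme that makes the red cell oxygen regulator bisphosphoglycerate, fell by 1.75 on the log2 scale (SE 0.13) from a median of 45.7 to 14.8 FPKM. Bnip3l, a receptor for the clearance of mitochondria, fell by 1.29 (SE 0.06), and neither gene overlapped between airs. Among all genes, 2.13% were lower in hyperoxia with no overlap.

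Smaller falls were seen for the antioxidant enzyme Prdx2, at -0.74 on the log2 scale, and carbonic anhydrase Car2 at -0.63. Trim10, at -1.003 without a test, reached 1 FPKM in 7 saline room air mice and in no saline hyperoxia mouse. The transferrin receptor Tfrc was at -0.19 (limma adjusted p = 0.0545) and Fbxo7 at 0.00 (limma adjusted p = 0.968). Alox15 went the other way without passing the threshold, at 0.72 (limma adjusted p = 0.0946). The median log2 change over the 12 tested genes was -0.58. Ahsp was not used here.

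Of the 19 red cell membrane genes, 12 were tested, but 7 of them reached 1 FPKM in 3 or more mice of each air. Of these 7, 4 were lower: Dmtn at -0.63, the water channel Aqp1 at -0.63, Epb41 at -0.43 and Gypc at -0.26. The others did not pass the threshold, with Tmod1 at 0.34 (limma adjusted p = 0.12), Add2 at -0.0025 and Mfsd2b at -0.088. Aqp1 and Epb41 are also made by cells other than red cells. The defining red cell membrane genes were scarce. Slc4a1, the band 3 anion exchanger, was 0.231 to 4.88 FPKM in saline room air lungs and at most 0.0382 in hyperoxia, a log2 difference of -1.41 given without a test.

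Slc4a1 reached 1 FPKM in no saline hyperoxia mouse, and ankyrin Ank1, at -1.20 without a test, reached it in 2. Epb42 was 0 to 1.38 FPKM in saline room air lungs and at most 0.211 in hyperoxia and did not enter the test. A pseudocount of 1 understates the change of genes at these levels. Slc4a1, Ank1 and Epb42 were therefore at most 10.8 FPKM in saline room air lungs, where Hbb-bs was at least 2131.

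Factors that drive red cell formation and enzymes of heme synthesis were listed as well. Klf1, the globin gene activator, was at most 0.344 FPKM in saline room air and 0.242 in hyperoxia lungs. Gata1 and Alas2 lie on the X chromosome and are listed at 0 in every mouse, as are the other X-linked genes of the table, so their 0 carries no information. Of 6 transcription factor genes at 1 FPKM or more in each air, 3 were lower, namely Lmo2 at -1.37, Myb at -0.73 and Ldb1 at -0.62, and Zbtb7a was higher at 0.24. Lmo2 and Ldb1 are also made by endothelial and other cells.

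Of 12 heme synthesis genes tested, 5 were lower (Uros at -0.75, Fech at -0.56, Slc25a37 at -0.42, Alad at -0.38 and Abcb10 at -0.24) and 1 was higher, Cpox at 1.04 (SE 0.12). Alas1, the housekeeping enzyme of the first step, was 67.1 to 381 FPKM in room air and 72.5 to 187 in hyperoxia (log2 difference -0.20, limma adjusted p = 0.271). The median over the list was -0.22.

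Genes for the clearance of hemoglobin and heme went mostly the other way, with 7 of 11 higher and 2 lower in hyperoxia. Hmox1, the inducible heme oxygenase, was 22.5 to 31.2 FPKM in saline room air lungs and 44.8 to 434 in hyperoxia, a log2 change of 2.14 (SE 0.17, limma adjusted p = 2.04e-09). Cd163, the hemoglobin scavenger receptor of macrophages, rose by 1.35 (SE 0.10), biliverdin reductase Blvrb by 0.83 and the heme-binding protein hemopexin, Hpx, by 0.81. The iron exporter Slc40a1 rose by 0.53. Transferrin, Trf, fell by 0.83 and haptoglobin, Hp, by 0.52. The median over the list was 0.49.

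Globins outside the pairs were low. Hbb-bh1, an embryonic beta-like gene, was listed at 0 in all saline lungs, and Hbb-y and Hba-x, other embryonic genes, were at most 0.658 and 0.412 FPKM. The theta-like genes Hbq1a and Hbq1b reached 1 FPKM in 4 saline room air lungs each and in no saline hyperoxia lung. Cytoglobin, Cygb, which is made by fibroblast-like cells, was 9.78 to 21.2 FPKM in room air and 7.04 to 19.9 in hyperoxia and fell by 0.28 (SE 0.10, limma adjusted p = 0.0161). Mb, the myoglobin of heart and muscle, ranged from 0.225 to 233 FPKM among saline room air lungs and from 0 to 3.91 in hyperoxia, a log2 difference of -3.40. Ngb, the globin of neurons, was 1.52 to 4.36 FPKM in room air and 0 to 1.30 in hyperoxia, a log2 difference of -1.498. Mb and Ngb reached 1 FPKM in 2 saline hyperoxia lungs each, so their differences are given without a test.

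Markers of other blood cells were measured in the same lungs. Of 11 platelet genes tested, 10 reached 1 FPKM in at least 3 mice of each air. Of these, 2 were lower in hyperoxia, Ppbp at -1.04 and Treml1 at -0.74. Pf4 was 19.2 to 73.6 FPKM in room air and 26.1 to 93.7 in hyperoxia (log2 difference 0.35, limma adjusted p = 0.167), and the summed platelet list was 53.1 to 167 FPKM in room air and 59.1 to 157 in hyperoxia. Of 11 neutrophil genes, 8 were higher in hyperoxia and none lower, among them Mmp8 at 2.51, Retnlg at 2.49, Lcn2 at 2.38 and S100a8 at 1.44. The summed neutrophil list was 218 to 958 FPKM in saline room air and 395 to 7696 in saline hyperoxia lungs, and none of its genes was at 0 in all mice.

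Markers of lung tissue also moved with air. The club cell gene Scgb1a1 fell by 2.55 on the log2 scale, and the surfactant genes Sftpc and Sftpa1 fell by 2.26 and 1.99, and the alveolar type 1 gene Ager fell by 0.60, while Sftpb rose by 0.40 and the macrophage gene Marco by 1.90. Of the endothelial genes, Pecam1 and Cldn5 were at 0.00 and -0.04, and Cdh5 rose by 0.39 (limma adjusted p = 0.0042). Cdh5 was at 0.17 under quantile scaling and at -0.01 with the 24 ATG mice, neither past the threshold. The summed lung list was 103724 to 258654 FPKM in saline room air and 18743 to 61450 in saline hyperoxia. The part of these shifts in the globin values was not tested.

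Several of these calls depended on the mice or the scaling. With the 24 ATG mice in place of the saline mice, Prdx2 (-0.19), Uros (-0.15), Hp (-0.30), Slc40a1 (0.14) and Treml1 (-0.29) kept their direction but did not pass the threshold, and Marco (-0.18), Slc25a37 (0.05) and Zbtb7a turned direction without passing it. Under quantile scaling Scgb1a1 was at -0.21 and Zbtb7a at 0.12, neither past the threshold, and Slc25a37 lost its call without the C3HM lungs 1 and 3.

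**Figure D4:**
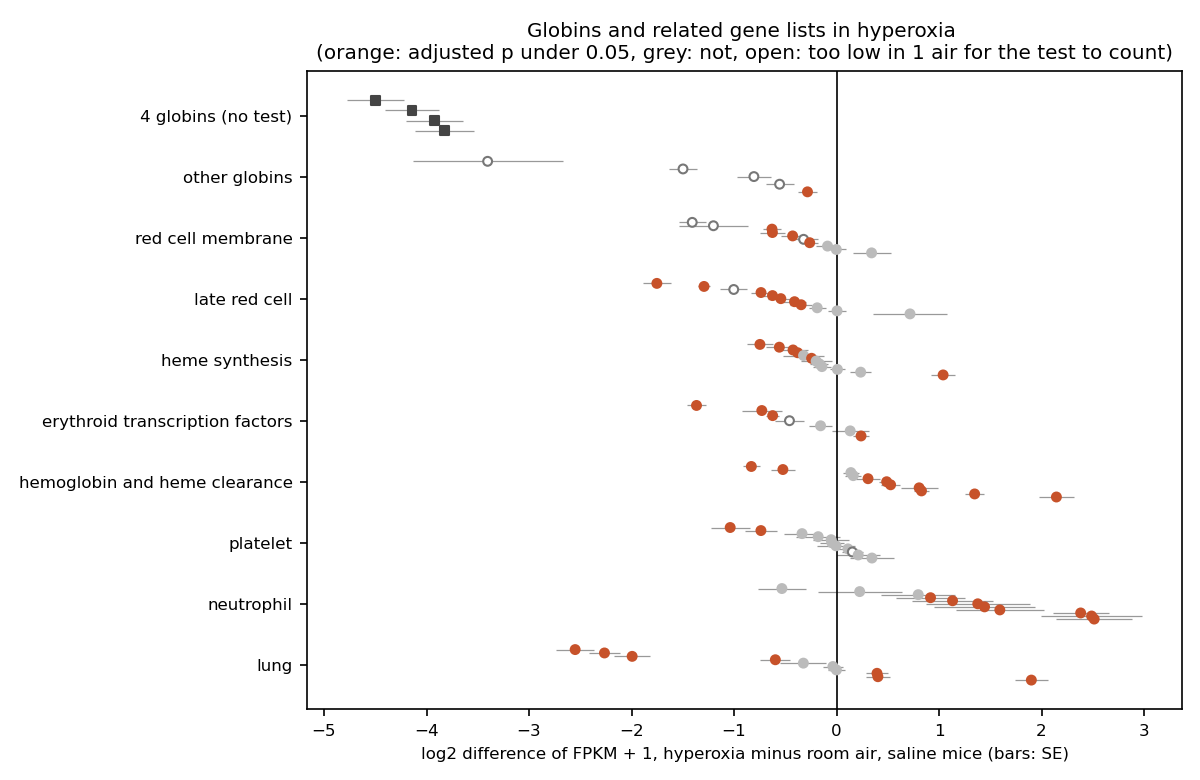
Log2 difference of FPKM + 1 between hyperoxia and room air in 24 saline mice (bars are SE) for the globins and genes tested in 9 lists, with the globins as dark squares, listed genes at an adjusted p under 0.05 in orange, others in grey, and genes that reached 1 FPKM in fewer than 3 mice of 1 air as open circles. The globins lie at -3.83 to -4.50 and Mb at -3.40, while neutrophil and heme clearance genes lie mostly above 0.

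Between strains at baseline 11.8% of 15546 genes passed the threshold, 3.92% higher and 7.87% lower in C3H. Alad, the second enzyme of heme synthesis, averaged 124 FPKM in C3H and 39.3 in C57B, a log2 change of 1.63 (SE 0.09, limma adjusted p = 3.47e-07). Tmod1, of the red cell membrane skeleton, was higher in C3H, at 0.56. Add2, of the same skeleton, averaged 1.10 FPKM in C3H and 0.0425 in C57B. It reached 1 FPKM in no C57B mouse and passed the low-value filter only through C3H, which favors a difference, so no test is given. The erythroid and megakaryocyte factor Nfe2 was lower in C3H, at -0.69, as was the platelet gene Ppbp at -0.93. Slc4a1 was at 0.74 (SE 0.23, limma adjusted p = 0.0633). Of the 11 neutrophil genes, 7 were lower in C3H, and 6 of the 7 calls, all but Mmp9 at -1.62 (SE 0.18), were lost in at least 1 other setting. Tmod1 lost its call in the fit of 48 mice and Nfe2 without the C3HM lungs 1 and 3.

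Between sexes at baseline 0.669% of genes passed the threshold, and of the related genes only Cygb at -0.58 and Alas1 at -1.01 did, both lower in males and both lost without the C3HM lungs 1 and 3. Bpgm was at 0.70 (SE 0.20, limma adjusted p = 0.106) and Slc4a1 at 0.15 (SE 0.23, limma adjusted p = 0.724). In the 36 exposed mice Cd163 and Zbtb7a were lower in males, at -0.61 and -0.23, and Tmem14c and Sftpc were higher, at 0.19 and 0.53.

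The genes whose levels followed the globins most closely were found by Pearson correlation of log2(FPKM + 1) with the mean of the 4 globins over 48 mice, among 16990 genes. The 10 closest included Fabp1 (r = 0.940), Bpgm (0.918), Bnip3l (0.916), Nnat (0.901), Tril (0.897), Tmeff2 (0.897), Rnf144a (0.897), Ube2l6 (0.897) and Tspan18 (0.896). The 48 lungs form a room air and a hyperoxia cluster, and any gene much lower in hyperoxia scores high over both, so values within each air are given as well. Genes share the libraries and are not independent points.

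Within room air, Ube2l6, which encodes an interferon-induced conjugating enzyme, had r = 0.929 over 24 lungs (Spearman's rho 0.890, and r = 0.867 without the 2 lungs farthest from the median globin level), and in the 24 hyperoxia lungs 0.03. Bpgm had r = 0.819 in room air and 0.208 in hyperoxia, Bnip3l 0.821 and -0.03, and Fabp1 0.782 and 0.03. Tril, Tmeff2, Rnf144a and Tspan18 had r between -0.09 and 0.14 in room air, and Nnat 0.481. The room air values also hold differences between the groups. With group means subtracted, r over the 48 mice was 0.357 for Ube2l6, 0.519 for Bpgm, 0.245 for Bnip3l and 0.239 for Fabp1. For Nnat, Tril, Tmeff2, Rnf144a and Tspan18 it ran from -0.196 to 0.308. Slc4a1, although a few FPKM at most, had r = 0.624 in room air.

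**Figure D5:**
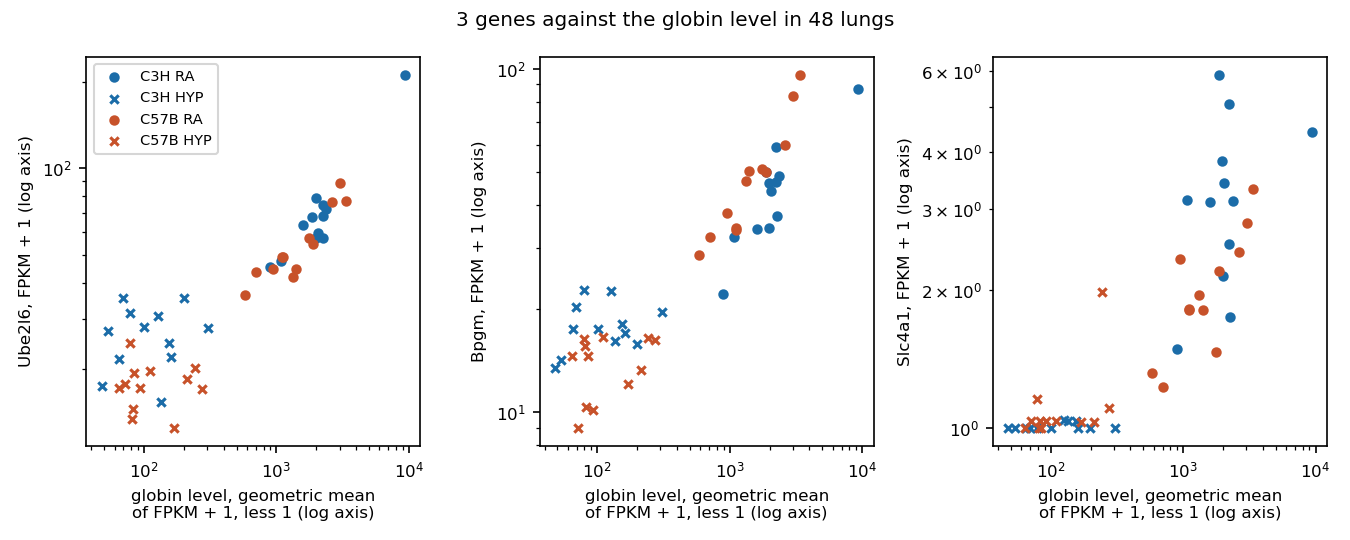
FPKM + 1 of Ube2l6, Bpgm and Slc4a1 against the globin level (geometric mean of FPKM + 1 of the 4 genes, less 1) in 48 lungs, both on log axes, with dots for room air and crosses for hyperoxia. For Ube2l6, r with the globins is 0.929 over the room air lungs and 0.03 over the hyperoxia lungs, and for Bpgm 0.819 and 0.208. With group means subtracted, r over the 48 lungs is 0.357 for Ube2l6 and 0.519 for Bpgm.

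The 4 globins followed one another closely once strain and exposure were set aside. With group means subtracted, r between pairs of them ranged from 0.906 to 0.979 over the 48 mice. Before this, Hba-a1 and Hba-a2 had r = -0.27 in room air and -0.03 in hyperoxia. Hbb-bs and Hbb-bt had r = 0.926 in room air and 0.805 in hyperoxia.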

How the data were processed

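RNA from 48 lungs was sequenced in 2 × 150 base format after poly(A) selection. GSNAP was used by the authors for alignment (build mm10) and Cufflinks for FPKM, per the submitters' processing notes, and they deposited 1 FPKM table of 47561 genes. The reads and counts were not used here. Per the file headers, columns are mouse numbers, all matched to samples. Akap5, with a failed estimate in 7 lungs, was left out. FPKM from the deposited table was used as log2(FPKM + 1). Genes with at least 1 FPKM in at least 3 fitted mice were tested with limma 3.58.1 in R 4.3.3, on group means with a trend in the variance and Benjamini-Hochberg adjustment over all genes, at a threshold of 0.05. The design was that of the study, extended to the exposed mice. The script was tested on simulated data. The 47561 identifiers were matched to GENCODE M21 (47145 found) and promoters to RefSeq. No libraries held identical values, and within groups r between libraries was 0.933 to 0.979. Nothing in the sources says whether libraries were prepared in batches.

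The members and gene lists were chosen with earlier results of these data known. Genes named are the 4 globins, listed genes past the threshold (at most the 6 largest per list and comparison), Slc4a1, Epb42, Ank1, Ahsp, Klf1, Alas2, Gata1, Pf4 and S100a8, and the 10 genes most like the globins, and a few genes that this rule names are not reported here. Tfrc, Fbxo7, Alox15, Mfsd2b, Alas1, Gypc, Epb41, Hp, and Bpgm, Tmod1 and Add2 where not past the threshold, were added as values after they were seen. So were the scarce globins, Rn18s-rs5, Mb and the marker genes. Alternatives were pseudocount 0.1, filters, quantile and median ratio scaling, rescaling without the globins and Scgb1a1, a fit without trend, a fit of all 48 mice and leaving out each mouse.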

Additional observations from a re-analysis of the deposited data

Results flagged for a closer look

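In the 6 C3H saline room air lungs of both sexes, the highest lung stood apart for all 4 genes by Dixon's test, at 16865 FPKM for Hba-a1, 1342 for Hba-a2, 41619 for Hbb-bs and 8131 for Hbb-bt, and all 4 values came from the same C3HM lung. Rn18s-rs5 in that lung was at 20766 FPKM, and the part of ribosomal RNA in its globin values was not tested. In the 6 C3H saline hyperoxia lungs the highest Hbb-bt value, 263 FPKM, also stood apart. That makes 5 of 32 sets of 6 lungs. Chance flags about 1 in 20 independent sets, but 4 of the 5 come from 1 lung and from genes that move together (r between pairs of 0.906 to 0.979 with group means subtracted), so the count cannot be set against that share.

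In C57B room air lungs the globins moved in opposite directions with ATG in the sexes, every ATG lung lying below the saline lungs in males and above them in females. The log2 ratio of ATG to saline means was -0.81 for Hba-a1, -0.86 for Hba-a2, -0.91 for Hbb-bs and -1.13 for Hbb-bt in males. In females it was 0.67, 0.72, 0.88 and 0.85 in the same order. The difference between the sexes was not tested.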

How the results depend on the processing

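No paired analysis was possible because mouse numbers are unique to each lung and no number is shared between groups.

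The log2 differences of the globins in hyperoxia moved by less than the spread between mice in all alternatives, and leaving out 1 mouse gave -4.26 to -3.97 for Hbb-bs, -4.63 to -4.33 for Hbb-bt, -4.06 to -3.73 for Hba-a1 and -3.97 to -3.64 for Hba-a2. In the 36 exposed mice no globin passed the threshold for sex in any alternative, with log2 differences of 0.22 to 0.41 for Hbb-bs, 0.20 to 0.39 for Hbb-bt, 0.26 to 0.43 for Hba-a1 and 0.20 to 0.40 for Hba-a2 when 1 mouse was left out. Of 84 calls on related genes, 52 kept direction and threshold in every alternative that kept all mice or all but C3HM SAL RA 1 and 3. Lung C3HM ATG RA 4, with Rn18s-rs5 at 22813 FPKM, was not left out there.

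Counts over all genes were less stable, and the cause was not tested. The sex count in exposed mice (613) was 398 to 1357 with 1 mouse left out (1357 without C57BM SAL HYP 19, 404 without C57BM SAL HYP 20 and 398 without C57BF ATG RA 42), 108 in hyperoxia mice alone and 250 in ATG room air mice alone. The strain count (1832) was 1306 to 4021 (4021 without C3HM SAL RA 2) and 2981 in the fit of 48 mice. The baseline sex count (104) was 20 to 3640, moving over 1.5 times for each of the 12 mice (3640 without C3HM SAL RA 2), 60 with an FPKM minimum of 0.1, 40 without a filter, 165 after rescaling without the globins and Scgb1a1, 2057 in the fit of 48 mice and 30 without C3HM 1 and 3. The interaction count was 0 with limma (2538 genes at an unadjusted p under 0.05), 0 to 2741 with 1 mouse left out (2741 without C3HM 2), 5 with pseudocount 0.1, 2 with the lower FPKM minimum, 2 without a filter, 2 without trend, 841 in the fit of 48 mice and 1 without C3HM 1 and 3. The ATG count (3) was 3 to 32 (32 without C3HM SAL RA 2, 9 without C57BF ATG RA 40, 7 without C57BF SAL RA 39, 5 without C57BM ATG RA 16), 5 without a filter, 5 without C3HM 1 and 3, and 868 in hyperoxia mice. The hyperoxia count (9803) was 9479 to 10098. Quantile scaling moved the median log2 difference of all genes from -0.10 to 0.02 for strain and from -0.12 to -0.0027 for baseline sex, and the split of higher and lower strain calls from 609 and 1223 to 974 and 930.

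With the 24 ATG mice in place of the saline mice, chosen after the data had been seen, hyperoxia turned the direction of Marco (-0.18), Cdh5 (-0.012), Ngp (-0.27), Slc25a37 (0.045), Zbtb7a (-0.00479) and Lrp1 (-0.087), none past the threshold. Marco was at -0.62 for ATG in hyperoxia mice. Without C3HM SAL RA 3 the strain by sex difference at baseline moved from -1.31 to -2.01 for Hbb-bs, from -0.35 to -1.09 for Hba-a1, from -1.38 to -2.12 for Hba-a2 and from -1.82 to -2.50 for Hbb-bt.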
